A study of Mus musculus with 9 samples.

Results

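For antigen presentation by MHC class I, 10 genes were listed by symbol, and 9 of the 10 had a row in the table of 21212 genes: the class I heavy chain genes H2-K1 and H2-D1, the light chain gene B2m, the peptide transporter genes Tap1 and Tap2, the tapasin gene Tapbp and the immunoproteasome genes Psmb8, Psmb9 and Psmb10. Nlrc5, the transactivator of class I genes, is not analysed here. The cells were primary microglia from the brains of wild-type CD-1 mouse pups (P0 or P1, pooled litters), grown for 5 to 7 days with M-CSF and GM-CSF at 10 ng/ml each and kept in serum-free medium overnight. They were then given LPS at 100 ng/ml (M1-skewing), IL-4 at 20 ng/ml (M2a-skewing) or the same volume of PBS (resting) for 4 h. Each condition has 3 exon arrays, 9 in all, and the values are log2 RMA values. CD-1 is an outbred stock, and whether its H2 alleles match the probes was not tested.

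Class I molecules show peptides from the inside of a cell to CD8+ T cells. Peptides are cut by the proteasome, carried into the endoplasmic reticulum by the TAP transporter and loaded, with the help of tapasin, onto a heavy chain paired with beta-2 microglobulin. Interferons and inflammatory signals can replace the catalytic subunits of the proteasome by the inducible subunits Psmb8, Psmb9 and Psmb10, which form the immunoproteasome. Microglia carry little class I in the healthy brain and are known to raise it under inflammation.

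Most of these genes lie in the MHC on chromosome 17. On GRCm38.p6 the order is Tapbp (chr17:33919478-33929290), H2-K1 (chr17:33996012-34000619), Psmb9 (chr17:34182030-34187330), Tap1 (chr17:34187556-34197225), Psmb8 (chr17:34198195-34201454), Tap2 (chr17:34204479-34216321) and H2-D1 (chr17:35263094-35267497). B2m lies at chr2:122147687-122153082 and Psmb10 at chr8:105935728-105938392. Psmb9 and Tap1 run away from each other, with 225 bases between their starts in RefSeq. This stretch is shown because it lies before both genes, beside the bases just before the starts of H2-K1, H2-D1 and B2m, the genes of the set that did not pass the test with LPS. For H2-K1 the start is that of the first transcript window RefSeq lists (chr17, base 34000347), which lies 272 bases inside the outer bound of the gene, so the stretch shown is within these bounds. Each sequence runs 5′ to 3′ on the strand given. Capitals mark matches on either strand to the X2 box core (TGACG), the CCAAT box (CCAAT), a form of the interferon response element (GAANNGAAA) and the kappa B motif.
Psmb9 to Tap1, chr17:34187331-34187555, plus strand: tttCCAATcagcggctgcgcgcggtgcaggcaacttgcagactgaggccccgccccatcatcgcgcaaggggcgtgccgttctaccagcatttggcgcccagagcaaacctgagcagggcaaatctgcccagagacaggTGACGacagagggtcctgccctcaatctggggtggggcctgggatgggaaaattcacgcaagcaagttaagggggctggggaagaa
H2-K1, chr17:34000348-34000522, minus strand: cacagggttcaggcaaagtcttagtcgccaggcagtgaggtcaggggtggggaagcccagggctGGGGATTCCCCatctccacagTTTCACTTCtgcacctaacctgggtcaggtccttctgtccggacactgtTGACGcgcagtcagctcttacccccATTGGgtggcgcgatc
H2-D1, chr17:35262919-35263093, plus strand: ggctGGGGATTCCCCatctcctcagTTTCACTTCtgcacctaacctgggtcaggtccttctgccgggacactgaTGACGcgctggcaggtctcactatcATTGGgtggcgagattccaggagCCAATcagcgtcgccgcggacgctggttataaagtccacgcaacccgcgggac
B2m, chr2:122147512-122147686, plus strand: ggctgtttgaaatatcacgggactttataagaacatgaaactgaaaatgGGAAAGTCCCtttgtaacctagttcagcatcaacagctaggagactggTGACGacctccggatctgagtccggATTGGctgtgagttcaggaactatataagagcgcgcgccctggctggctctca

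RefSeq gave a promoter window for 8 of the 9 genes, all but Tap2, and the 250 bases before the start were searched. The X2 box core was found in 5 of 8 windows (H2-K1, H2-D1, B2m, Tap1 and Psmb9), against 17.8% of 32851 windows of all genes, and the CCAAT box in 6 of 8, against 33.8%. The matches of Tap1 and Psmb9 are the same letters, read from both ends of the stretch they share. In H2-K1, H2-D1 and B2m the X2 box core was followed after 20 bases by a CCAAT box in reverse (ATTGG), a pair that 30 of all windows hold (0.0913%). X2 and Y boxes of this kind are known parts of class I promoters, and the spacing was read after the matches had been seen. The interferon response element was found in H2-K1 and H2-D1 (6.31% of all windows) and the kappa B motif in H2-K1, H2-D1 and B2m (7.25%). Its matches in H2-K1 and H2-D1 are a pair shifted by 1 base, and no other marked motifs overlap. The gamma-activated site (TTCNNNGAA, 7.02% of all windows) was found in Psmb8 alone, and the Psmb10 window held none of the 5 motifs. A match describes the letters and not a bound factor.

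The labelled cell type was checked by its markers. Of 11 microglia markers with a row, C1qb, Csf1r, C1qa, Trem2 and Itgam lay above the 90th percentile of their array on all 9 arrays. Cx3cr1 (percentiles 55.8 to 96.2), Fcrls (48.8 to 93.1), Aif1 (58.5 to 76.4) and P2ry12 (51.5 to 71.0) ranged lower. Tmem119 lay between percentiles 32.6 and 49.3 and Gpr34 between 4.25 and 32.8. The median of the 11 microglia markers lay between percentiles 61.3 and 94.8, and that of 8 astrocyte markers between 90.8 and 96.2. On each array the astrocyte list had the higher median value. Among the marker lists, replicate 3 of LPS and of PBS stood apart from replicates 1 and 2 most by motile cilia genes (medians 1.58 and 1.80 higher on the log2 scale over 11 genes). Medians were also higher for astrocyte (0.59 and 0.69), oligodendrocyte (0.81 and 0.43) and microglia markers (0.16 and 0.40). Those for neuron, fibroblast, endothelial and dendritic or lymphoid markers were lower. Between replicate 3 and replicates 1 and 2 the members differed by −0.11 to 0.17 (LPS) and −0.40 to 0.09 (PBS), with Psmb10 in PBS at the low end. The labels do not say that replicates are separate litters, so p-values cover the array-to-array spread only, and this may be technical. In bulk RNA, fewer cells of a type and less RNA per cell cannot be told apart.

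LPS raised the listed genes that cut, carry and load peptides and left H2-K1, H2-D1 and B2m within the error. Of the 9 genes, 6 were higher than in PBS, 3 did not pass and none was lower (limma, adjusted p under 0.05, 3 arrays against 3). Of all 21212 genes, 15.4% were higher, 22.4% were lower and 37.8% were called in either direction. The same 6 genes had LPS arrays that all lay above the PBS arrays, while of all genes 45.7% had groups without overlap (20.4% higher, 25.4% lower). The median difference of the 9 genes was 1.45 on the log2 scale, against 0.01 over all genes. The 6 calls held under each of 16 alternative settings, among them the one with replicate 3 left out of both LPS and PBS. Microglia markers moved in the same comparison: 8 of 11 were lower in LPS and none was higher (median difference −0.70), with list medians of 7.97 to 9.31 in LPS and 9.15 to 10.62 in PBS. Their part in the differences of the 9 genes was not tested.

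**Figure D1:**
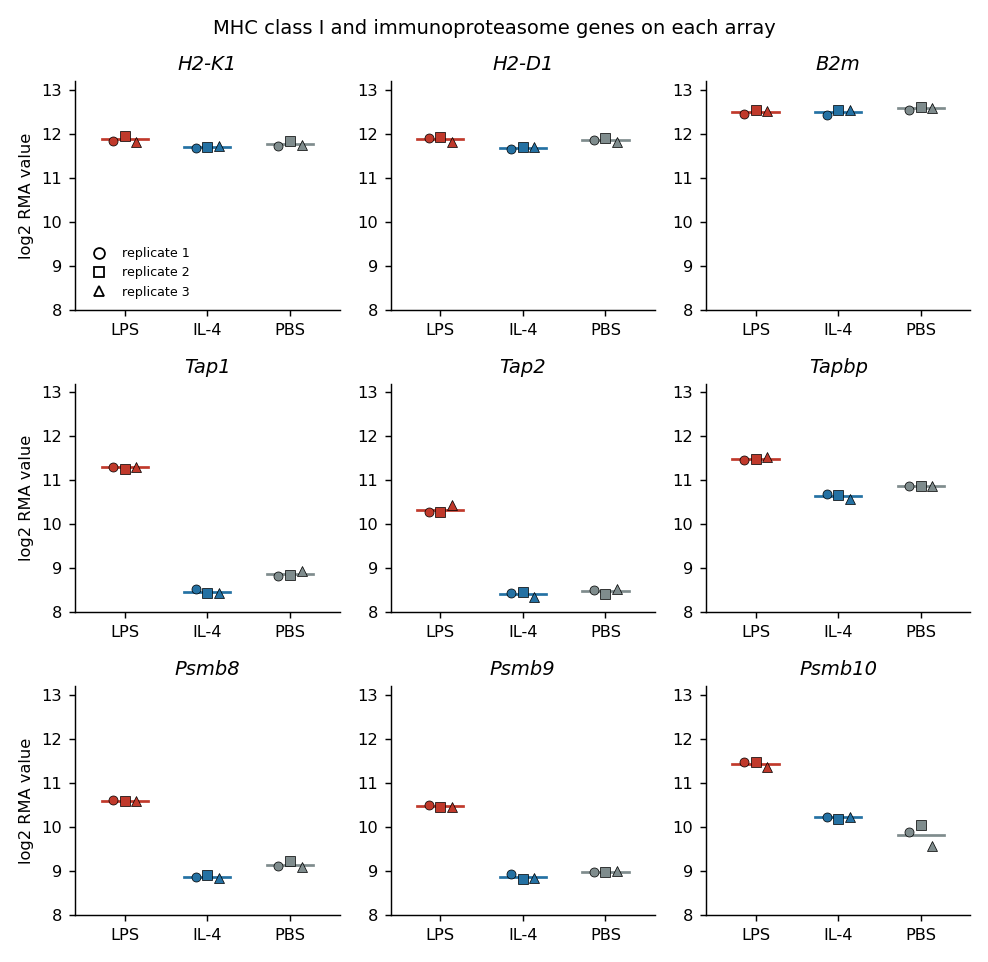
Log2 RMA value (vertical axis, the same in each panel) of the 9 genes on each array, grouped as LPS, IL-4 and PBS. Points are arrays, with marker shapes for the replicate number, and lines are means of 3 arrays. The LPS arrays lie above all other arrays for Tap1, Tap2, Tapbp, Psmb8, Psmb9 and Psmb10, while H2-K1, H2-D1 and B2m stay between 11.66 and 12.60 in every condition.

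The peptide transporter changed most. Tap1, which with Tap2 moves peptides into the endoplasmic reticulum, had log2 values of 11.31, 11.26 and 11.31 in LPS, against 8.82, 8.85 and 8.93 in PBS. All LPS arrays lay above all PBS arrays, with a gap of 2.33 between the groups. The difference of 2.43 ± 0.05 (SE) is 5.38-fold (limma adjusted p = 1.26e-08), and Tap1 ranked 183 of 21212 genes by its rise.
Tap2, the partner of Tap1, had 10.28, 10.27 and 10.44 in LPS, against 8.50, 8.43 and 8.54 in PBS. The groups did not overlap, and the difference was 1.84 ± 0.06 (SE, 3.58-fold, limma adjusted p = 1.50e-07). The 95% interval for Tap2 (1.69 to 1.99) lay below that for Tap1 (2.31 to 2.55).
Tapbp encodes tapasin, which holds an empty class I molecule at the transporter. It had 11.45, 11.48 and 11.53 in LPS, against 10.86 on each of the 3 PBS arrays. Its difference of 0.63 ± 0.05 (SE, 1.54-fold, limma adjusted p = 1.81e-05) was the smallest of the 6 genes that rose. The PBS values were identical to all digits, as for 236 genes (1.11%), so the SE rests on the other conditions and on the prior of the fit.

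The 3 immunoproteasome genes rose by like amounts. Psmb8, the inducible subunit with chymotrypsin-like activity, had log2 values of 10.61, 10.58 and 10.60 in LPS, against 9.11, 9.22 and 9.09 in PBS, a difference of 1.45 ± 0.05 (SE, 2.74-fold, limma adjusted p = 1.58e-07). Psmb9, which takes the place of Psmb6, had 10.50, 10.44 and 10.45 in LPS, against 8.98, 8.97 and 8.99 in PBS, a difference of 1.48 ± 0.05 (2.79-fold, limma adjusted p = 1.15e-07). No LPS array overlapped a PBS array for either gene.
Psmb10, which takes the place of Psmb7, had 11.48, 11.46 and 11.36 in LPS, against 9.88, 10.04 and 9.55 in PBS. Its difference was 1.61 ± 0.11 (SE, 3.06-fold, limma adjusted p = 8.13e-06). The PBS arrays were further apart (SD 0.25) than for Psmb8 (0.07) and Psmb9 (0.01), PBS replicate 3 being the lowest, and without PBS replicate 3 the difference was 1.48. The 95% intervals of the 3 differences overlapped (1.34 to 1.57 for Psmb8, 1.37 to 1.60 for Psmb9 and 1.36 to 1.86 for Psmb10). Psmb9 and Tap1, whose starts lie 225 bases apart, had intervals that did not overlap.

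The genes of the class I molecule did not pass the test with LPS. H2-K1, a classical heavy chain gene, had 11.84, 11.96 and 11.81 in LPS, against 11.72, 11.84 and 11.74 in PBS. H2-D1, the other classical heavy chain gene, had 11.90, 11.92 and 11.82 in LPS, against 11.86, 11.91 and 11.83 in PBS. B2m, the light chain that every class I molecule needs, had 12.46, 12.55 and 12.52 in LPS, against 12.53, 12.60 and 12.59 in PBS. The groups overlapped for all 3 genes.
The differences were 0.11 for H2-K1 (95% interval −0.02 to 0.24, limma adjusted p = 0.177), 0.02 for H2-D1 (−0.09 to 0.13, adjusted p = 0.804) and −0.07 for B2m (−0.19 to 0.05, adjusted p = 0.322). On this scale the upper bounds correspond to small rises, far below those of Tap1 or Psmb9. Subtracting the median of each array moved the median of all genes by 0.11. In that setting H2-K1 passed (0.22, adjusted p = 0.0304) and B2m turned to 0.04, while relative to the median of all genes H2-K1 lay at 0.10 in both settings. H2-K1 and H2-D1 are near-identical to each other and to other class I genes in parts of their sequence, so probes could share signal between them.

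**Figure D2:**
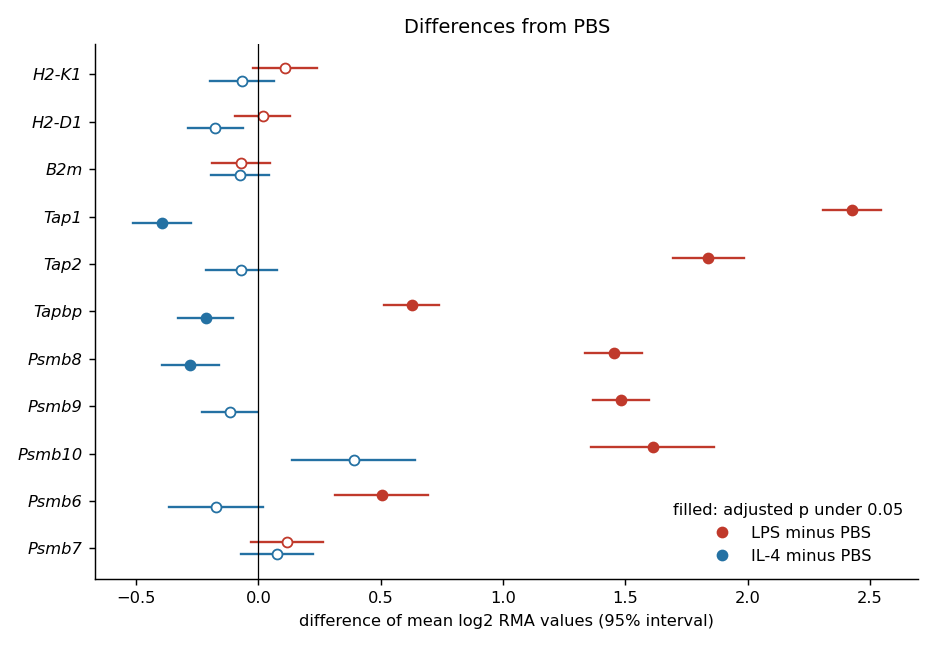
Difference of mean log2 RMA values from PBS (horizontal axis) for the 9 genes and the constitutive subunit genes Psmb6 and Psmb7, for LPS and for IL-4. Bars are 95% intervals of limma and filled points have an adjusted p under 0.05. With LPS 6 of the 9 genes lie to the right, from 0.63 for Tapbp to 2.43 for Tap1, and with IL-4 Tap1, Tapbp and Psmb8 lie to the left.

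The genes that did not pass lay near the top of the scale. B2m lay between percentiles 99.8 and 99.9 of its array on all 9 arrays, H2-K1 between 98.8 and 99.1 and H2-D1 between 98.8 and 99.1. The percentile gives the place of a row on the scale of the array and not the number of transcripts. By their PBS means the 3 genes ranked 26 (B2m), 186 (H2-D1) and 225 (H2-K1) of 21212. The highest row of the PBS means lay 0.44 above B2m, 1.15 above H2-D1 and 1.25 above H2-K1. Psmb8, Psmb9, Tap1 and Tap2 started between percentiles 67.0 and 79.6 in PBS and reached 91.2 to 97.6 in LPS.
Of the 225 genes whose PBS mean was at or above that of H2-K1 (11.76), 131 were called with LPS (58.2%), 9 higher and 122 lower. Over all genes the share called was 37.8% (15.4% higher, 22.4% lower). The 225 genes were picked by their PBS mean, which also enters the difference. Their largest rise was 0.91 and their largest fall −1.05. Elsewhere in the table, 59 genes had an LPS mean at or above 11.76 and a PBS mean more than 1 below it, with LPS means of up to 12.998. Whether the values of H2-K1, H2-D1 and B2m are compressed near the top of the scale was not tested.

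**Figure D3:**
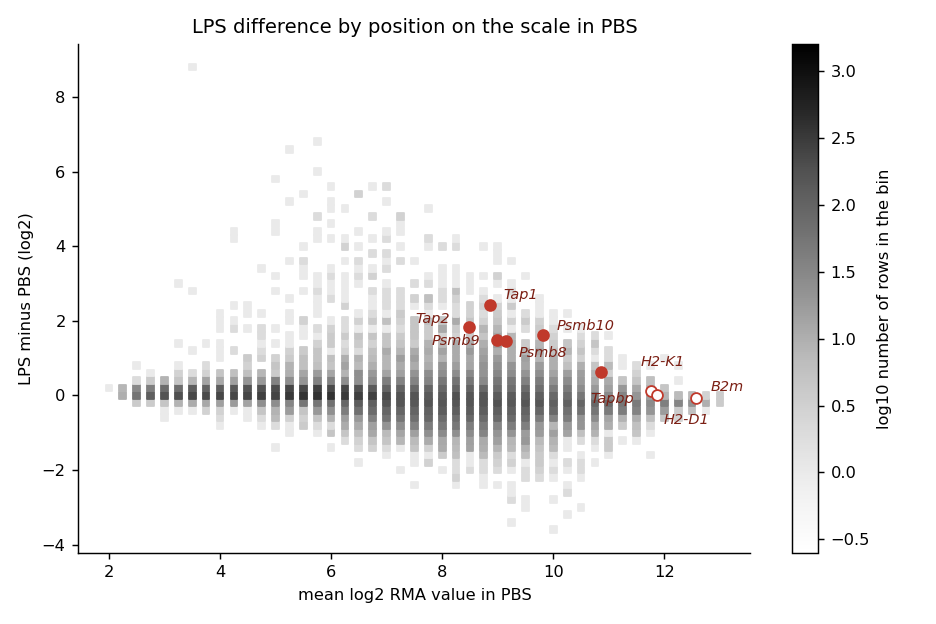
LPS minus PBS (log2, vertical axis) against the mean log2 RMA value in PBS (horizontal axis). Grey squares count all 21212 rows in bins, darker for more rows on a log10 scale, and circles are the 9 genes, filled where the adjusted p is under 0.05. H2-K1, H2-D1 and B2m sit at the right end of the scale, near a difference of 0.

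Where LPS raised inducible subunits, the constitutive subunits were followed as well. Psmb6, the subunit that Psmb9 replaces, had 11.50, 11.54 and 11.25 in LPS, against 10.97, 10.97 and 10.84 in PBS, and rose by 0.50 ± 0.08 (SE, limma adjusted p = 0.00147). Psmb7, the subunit that Psmb10 replaces, had 10.02, 10.14 and 9.94 in LPS, against 9.95, 9.97 and 9.82 in PBS, a difference of 0.12 (adjusted p = 0.197). Psmb5, the subunit that Psmb8 replaces, is not analysed here.
The inducible minus the constitutive value was then taken on each array, and only its change between conditions was read. Psmb9 minus Psmb6 averaged −0.97 ± 0.15 in LPS and −1.94 ± 0.09 in PBS (SD, n = 3 each), a change of 0.98, or 1.97-fold (exact two-sided permutation p = 0.1). Psmb10 minus Psmb7 averaged 1.404 ± 0.07 in LPS and −0.09 ± 0.17 in PBS, a change of 1.496, or 2.82-fold (exact permutation p = 0.1). No LPS array overlapped a PBS array for either pair. With 3 arrays against 3 the smallest p is 0.1, and over the 6 tests of this kind the adjusted p of both was 0.12.

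**Figure D4:**
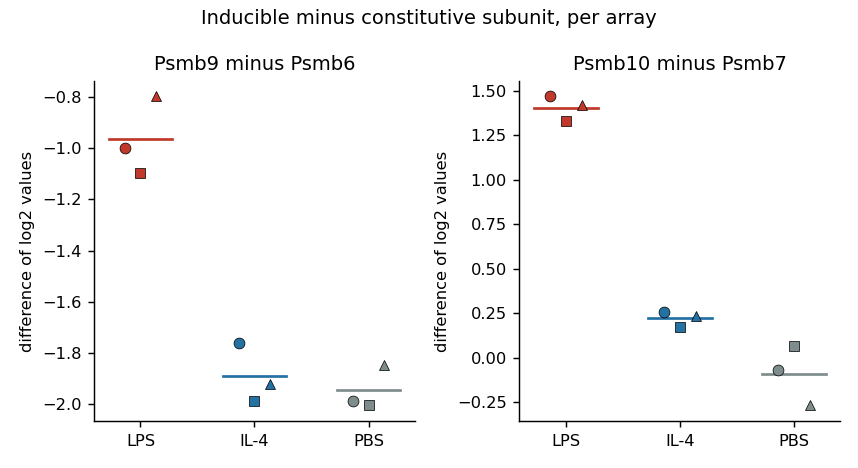
Log2 value of the inducible subunit gene minus that of its constitutive counterpart on each array (vertical axis), for LPS, IL-4 and PBS. Points are arrays, with marker shapes for the replicate number, and lines are means. The LPS arrays lie above all others in both panels, and only shifts between conditions, not the sign of a value, can be read.

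The other proteasome genes are given beside all genes, of which 15.4% were higher with LPS, 22.4% were lower and 37.8% were called. Of 11 other genes of the 20S core, 7 rose, 1 fell and 3 did not pass (median difference 0.34), led by Psma5 (0.87), Psma3 (0.74) and Psma6 (0.63). Of 9 activator and assembly genes, 4 rose and 2 fell. They include Psme2 (0.92 ± 0.07, SE) and Psme1 (0.82 ± 0.06), which form the interferon-inducible PA28 cap, and Pomp (0.47), the assembly chaperone of the proteasome. Of 17 genes of the 19S particle, 6 rose and 1 fell, with a median of 0.10, led by Psmd11 (0.56), Psmd7 (0.36) and Psmc5 (0.27). The share called in either direction was close to that of all genes, but most of these calls were rises, unlike those of all genes.
The other genes of peptide loading were split. Tapbpl, a tapasin-related peptide editor, rose by 1.86 ± 0.07 (SE, limma adjusted p = 2.93e-07), with means of 9.70 in LPS and 7.84 in PBS. Erap1, the aminopeptidase that trims peptides in the endoplasmic reticulum (Erap1 is also called ERAAP in mice), rose by 0.82. The general chaperone genes Pdia3 (−0.24), Canx (−0.22) and Calr (−0.21) fell and Hspa5 (0.11) did not pass. Canx, Calr and Hspa5 were named after their values had been seen.

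Heavy chain genes other than H2-K1 and H2-D1 were also measured. Of 17 other class I and class I-like genes, 14 rose with LPS and 3 fell (median 0.62), and all 14 that rose are H2 genes or Cd1d1. Over all genes, 15.4% were higher with LPS, 22.4% were lower and 37.8% were called. H2-M2 rose by 3.11 ± 0.15 (SE, limma adjusted p = 8.90e-07), with means of 11.29 in LPS and 8.18 in PBS, H2-T10 by 1.81 and H2-T24 by 1.80. The 3 that fell were Mr1 (−1.13), which presents microbial vitamin B metabolites, Fcgrt (−0.60), the neonatal Fc receptor gene, and Hfe (−0.48), which acts in iron control. These 3 are named with their values already known. The H2-Q and H2-T clusters hold near-identical copies, so a single gene's value there is uncertain.

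**Figure D5:**
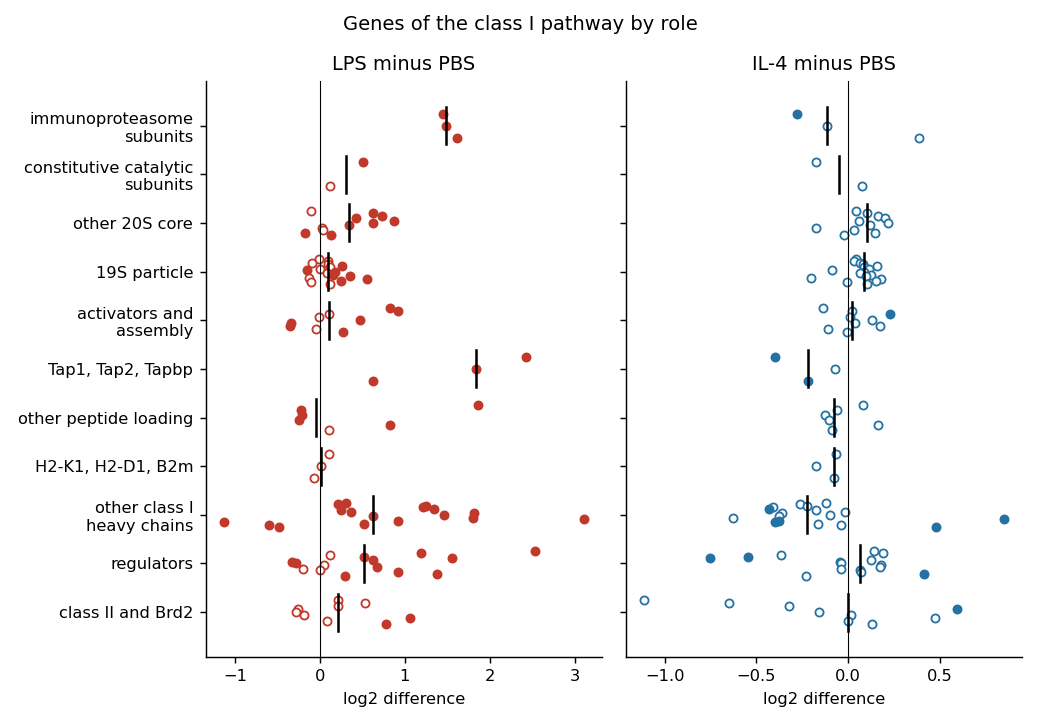
Log2 difference from PBS (horizontal axis) of each gene of the class I pathway, by role, for LPS and for IL-4 on separate scales. Filled points have an adjusted p under 0.05 and black lines are list medians. With LPS the inducible subunits (median 1.48) and Tap1, Tap2 and Tapbp (median 1.84) lie to the right of the 20S core (0.34) and the 19S particle (0.10).

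Of 15 regulators known to act on class I promoters, 9 rose with LPS, 2 fell and 4 did not pass (median 0.52). Over all genes, 15.4% were higher with LPS, 22.4% were lower and 37.8% were called. Irf1, an interferon regulatory factor that acts on Tap1 and Psmb9, rose by 2.53 ± 0.09 (SE, limma adjusted p = 1.45e-07), with means of 11.68 in LPS and 9.16 in PBS. Stat2, a part of the interferon-activated factor ISGF3, rose by 1.55 and Relb, an NF-κB subunit, by 1.38. Ciita, the class II counterpart of Nlrc5, rose by 0.30, with overlapping groups. It had 6.23, 6.24 and 5.91 in LPS, against 5.85, 5.92 and 5.71 in PBS, each below the median of its array. Nfkb1 is not analysed here.
Class II genes lie beside Psmb9, Tap1, Psmb8 and Tap2. Of 8 class II genes and Brd2 in the same stretch of the MHC, 2 rose with LPS and 7 did not pass (median 0.22), against 37.8% of all genes called. No test set these genes against the 9. Brd2, a bromodomain gene, rose by 0.78 and H2-Oa by 1.06 ± 0.25 (SE, limma adjusted p = 0.00984). H2-Ab1, a class II chain gene named after its values had been seen, had a difference of 0.53 (95% interval −0.52 to 1.58) that did not pass, with an SD of 0.97 over the PBS arrays.

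The rows whose profile over the 9 arrays was most like that of a member were also taken, by the root mean square difference after centring each row on its own mean. For Tap1 these were Ifi202b (0.08), Parp14 (0.09), Icosl (0.10), Trim21 (0.11) and Mxd1 (0.11). Their LPS minus PBS differences lay between 2.24 and 2.61. For Psmb9 they were Tdrd7 (0.05), Rbm43 (0.06), Ikzf1 (0.07), Etnk1 (0.08) and Chsy3 (0.08), with differences between 1.45 and 1.54. Psmb8, with a difference of 1.45, was not among the 5 rows nearest to Psmb9.

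IL-4 lowered Tap1, and some of its partners by less. Of the 9 genes, 3 were lower than in PBS (Tap1, Tapbp and Psmb8), 6 did not pass and none was higher (limma, adjusted p under 0.05). Of all genes, 2.05% were lower, 3.35% were higher and 5.4% were called. The median difference of the 9 genes was −0.12, against −0.02 over all genes. LPS and IL-4 were compared with the same PBS arrays.
Tap1 had log2 values of 8.53, 8.45 and 8.43 in IL-4, against 8.82, 8.85 and 8.93 in PBS. The groups did not overlap, and the difference was −0.40 ± 0.05 (SE, limma adjusted p = 0.00390), with an adjusted p between 8.36e-05 and 0.0367 over 16 alternative settings. Tap1 passed in each of them.
Psmb8 had 8.85, 8.90 and 8.83 in IL-4, against 9.11, 9.22 and 9.09 in PBS, a difference of −0.28 ± 0.05 (SE, limma adjusted p = 0.0182). Tapbp had 10.69, 10.67 and 10.58 in IL-4, against 10.86 on each PBS array, a difference of −0.22 ± 0.05 (adjusted p = 0.0428). Both calls were lost in some settings. Both missed the threshold in the methods' t-test. Psmb8 was lost without any one of IL-4 replicates 1, 2 and 3 or of PBS replicates 1 and 2 (adjusted p between 0.0555 and 0.0877). Tapbp was lost without any one of the 6 arrays (adjusted p between 0.0539 and 0.158).

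Psmb10 went the other way. It had 10.23, 10.17 and 10.23 in IL-4, against 9.88, 10.04 and 9.55 in PBS. All IL-4 arrays lay above all PBS arrays, and the difference was 0.39 ± 0.11 (SE, limma adjusted p = 0.0864), which did not pass. With replicate 3 left out of both LPS and PBS the difference was 0.25 and passed (adjusted p = 0.0151), and with PBS replicate 3 alone left out it was 0.25 and did not (adjusted p = 0.0572). Psmb10 minus Psmb7 averaged 0.22 ± 0.05 in IL-4 and −0.09 ± 0.17 in PBS (SD, n = 3 each), a change of 0.31 (exact permutation p = 0.1). Psmb9 minus Psmb6 averaged −1.89 ± 0.12 in IL-4 and −1.94 ± 0.09 in PBS, a change of 0.06 with overlapping groups (exact permutation p = 0.5).
Psmb9 had 8.93, 8.81 and 8.85 in IL-4, against 8.98, 8.97 and 8.99 in PBS (difference −0.12, limma adjusted p = 0.225). H2-D1 had 11.66, 11.70 and 11.71 in IL-4, against 11.86, 11.91 and 11.83 in PBS (−0.18, adjusted p = 0.0821). Neither gene had overlapping groups, and neither passed. Of the 9 genes 6 had groups without overlap, Psmb10 higher and 5 lower, against 29% of all genes (14.7% higher, 14.3% lower).
H2-K1 (−0.07, adjusted p = 0.546), B2m (−0.08, adjusted p = 0.441) and Tap2 (−0.07, adjusted p = 0.569) overlapped between the groups.

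The lists around these genes are given for IL-4 beside the 5.4% of all genes called (3.35% higher, 2.05% lower). Whether any list differs from these shares was not tested. None of the 11 other core genes, the 17 genes of the 19S particle, the 6 other loading genes or Psmb6 and Psmb7 passed, and of the activators Psme3, the nuclear cap PA28 gamma, rose by 0.23. Of the 15 regulators, Stat2 (−0.75 ± 0.06, SE, limma adjusted p = 3.55e-04) and Irf9 (−0.55 ± 0.06, adjusted p = 0.00218), which are both parts of ISGF3, fell. Relb, named with its value known, rose by 0.41. Of the 17 other heavy chain genes, H2-M2 (0.85) and Hfe (0.48) rose and H2-Q7 (−0.43), Mr1 (−0.40) and H2-M3 (−0.38) fell, the last 3 named after their values had been seen. Of the class II genes, H2-DMa, a peptide editor, rose by 0.59.
Markers of other cells moved in the same comparison. Of 8 fibroblast and meningeal markers 4 were higher in IL-4, with list medians of 8.79 to 8.94 in IL-4 and 8.25 to 8.29 in PBS, and of 6 endothelial markers 2 were higher, with list medians of 7.15 to 7.30 in IL-4 and 6.52 to 6.86 in PBS but a median difference of −0.05. Of 11 motile cilia genes none was called, but all had a higher mean in IL-4, by 0.36 to 0.92 (median 0.66). The list medians of the cilia genes were 8.71 to 8.97 in IL-4, against 7.62, 7.54 and 9.27 in PBS replicates 1, 2 and 3. The part of these markers of other cells in the differences of the 9 genes was not tested.

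Set against each other, LPS and IL-4 differed in 8 of the 9 genes, B2m being the exception. Of the 9 genes, 8 were higher in LPS than in IL-4 (limma, adjusted p under 0.05), against 21% of all genes higher, 25.9% lower and 46.9% called. The difference was 2.82 ± 0.05 for Tap1 (SE, 7.08-fold, adjusted p = 6.23e-09), 1.91 for Tap2, 0.84 for Tapbp, 1.73 for Psmb8, 1.60 for Psmb9 and 1.22 for Psmb10. The same 8 genes had no overlap between LPS and IL-4 arrays, against 59.9% of all genes (28.4% higher, 31.5% lower). Of the 11 microglia markers, 7 were lower in LPS than in IL-4 (median −0.58), as were 4 of 8 fibroblast and meningeal markers (median −0.42) and 1 of 11 motile cilia genes (median −0.95). Their part was not tested.
H2-D1, with 11.90, 11.92 and 11.82 in LPS and 11.66, 11.70 and 11.71 in IL-4, differed by 0.19 ± 0.05 (SE, limma adjusted p = 0.0118). H2-K1, with 11.84, 11.96 and 11.81 in LPS and 11.67, 11.69 and 11.72 in IL-4, differed by 0.17 ± 0.06 (adjusted p = 0.0352). The H2-K1 call was lost without LPS replicate 1 or 2 or without IL-4 replicate 1, 2 or 3 (adjusted p between 0.0592 and 0.111) and after quantile normalization (0.10, adjusted p = 0.103). B2m differed by 0.0049 (95% interval −0.11 to 0.12).
By condition means the order was LPS, PBS and IL-4 for H2-K1, H2-D1, Tap1, Tap2, Tapbp, Psmb8 and Psmb9. Of these neighbours, PBS and IL-4 did not pass the test for H2-K1, H2-D1, Tap2 and Psmb9, nor did LPS and PBS for H2-K1 and H2-D1. For Psmb10 the order was LPS, IL-4 and PBS, the last 2 not passing, and for B2m no pair of conditions passed.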

How the data were processed

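Total RNA was labelled with biotin and hybridised to Affymetrix Mouse Exon 1.0 ST arrays. The deposited log2 values were made by the authors with RMA and the affy package, as named in the submitters' processing notes (versions and genome build are not given in the sources used here), which corrects the background, equalises the arrays by quantiles and gives 1 value for each gene identifier. The table has 21212 rows, values between 2.05 and 13.06 and none missing. One symbol was found for 18786 rows, several for 6 and none for 2420. Array medians were 7.20 to 7.39.

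Groups were taken from the titles of the samples. A mean per condition was fitted to all 9 arrays and all rows with limma 3.58.1 and eBayes (R 4.3.3, residual df 6, prior df 2.38), without a block, with Benjamini-Hochberg adjustment across every row (threshold 0.05). The methods name Student's t-test, which was an alternative. The rows of the 9 genes were read from this fit. The number of arrays limits the precision. Subunit pairs were tested by exact permutation (scipy 1.17.1), and 1 of the 3 planned pairs could not be run. The fit was tested on simulated data whose noise was independent between arrays. Deviations shared between arrays were not simulated, so that test does not give the error rate in these data.

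The members and lists were chosen with earlier results of these data known. Named were all members, Psmb6 and Psmb7, the called list genes with the 3 (LPS) and 2 (IL-4) largest differences, Ciita and the 5 rows most like Tap1 and Psmb9. Other list genes are marked as named after their values were seen, single microglia markers were named with their levels known, and the lists of microglia, astrocyte, oligodendrocyte, neuron, cilia, fibroblast, endothelial and dendritic or lymphoid markers were described by medians (neuron −0.08 and −0.06 and oligodendrocyte 0.81 and 0.43 in replicate 3 of LPS and PBS against replicates 1 and 2, dendritic or lymphoid between percentiles 20.1 and 22.6). Deviations of same-numbered LPS and PBS arrays correlated (0.578, 0.651 and 0.800), but so did LPS 1 with PBS 2 (0.542) and LPS 2 with PBS 1 (0.605). The main fit stayed without a block, so its LPS and PBS arrays are not paired, and the replicate number was a block only in an alternative. The values separate only replicate 3 from replicates 1 and 2, and the labels state no pairing. For same-numbered IL-4 and PBS arrays the correlations were 0.339, −0.255 and 0.0752. Promoter sequences are from RefSeq (GRCm38.p6). Python 3.11.15, numpy 2.4.6, pandas 2.3.3 and matplotlib 3.10.9 were used.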

Additional observations from a re-analysis of the deposited data

How the results depend on the processing

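The alternatives were the t-test of the methods, a fit to 6 arrays alone, array weights, robust eBayes, eBayes with a trend, array medians subtracted, quantile normalization, the dimmest 33.3% of rows left out, the replicate number as a block, each array left out in turn and the 7 arrays left when replicate 3 of both LPS and PBS is dropped. The 9 genes in 3 comparisons under 16 alternatives each gave 432 values, of which 391 kept direction and side of the threshold, 23 lost the call, 8 gained it and 10 changed sign. None of these 10 was called in either setting. They were H2-D1 for LPS against PBS (−0.0058 with quantile normalization, −0.0017 to 0.048 without 1 array), B2m for LPS against PBS (0.042 with array medians subtracted) and B2m for LPS against IL-4 (−0.0093 with array weights, −0.042 with quantile normalization, −1.1e-04 with the 7 arrays, −0.028 to 0.030 without 1 array). The count of genes called for IL-4 against PBS was 3, and 1 with the t-test, 6 with array weights (1 higher), 5 with the 7 arrays (1 higher) and 1 to 2 without 1 array. Of all rows, 39.1% were called with array weights and 30.1% with the 7 arrays, against 5.4%. With the replicate block the counts were 6 (LPS against PBS), 2 (IL-4 against PBS, Tapbp lost at adjusted p = 0.0641) and 8 (LPS against IL-4), and no other call of the 9 genes changed. The change of Psmb9 minus Psmb6 for IL-4 against PBS was −0.0079 to 0.11 without 1 array, and the other 5 subunit changes kept their sign. Array medians subtracted moved the median of all genes by 0.11 (LPS against PBS) and 0.15 (LPS against IL-4), and of the calls over all genes 63.9% and 72.1% were then higher, against 40.8% and 44.8%. In that setting B2m was higher in LPS than in IL-4 (0.16, adjusted p = 0.0419). The causes were not tested. Depth does not apply to arrays. Whether the scale limits H2-K1, H2-D1 and B2m near its top was not tested.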
